A study of Mus musculus with 2 samples.

Results

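The Hsp, Dnaj and Cct chaperone genes were described across the cell names of a single-cell RNA sequencing series of mouse fetal liver erythroid progenitors. Members were the genes whose symbols start with Hspa, Hspb, Hspd, Hspe, Hsph, Hsp90, Dnaja, Dnajb or Dnajc, or with Cct followed by a digit, with Hspa1a and Hspa1b left out. The rule found 74 of the 17608 genes in the table. It reads symbols only, so it also takes in Hspb11, Hspbap1 and Hspbp1, which share a prefix with the small heat shock proteins without belonging to them, and it leaves out Tcp1, the first subunit of the CCT ring.

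The cells came from livers of C57BL/6 embryos at E14.5, when the liver is the main site of red cell formation, and were low in CD71 and CD24 per the labels. CFU-E, short for colony-forming unit-erythroid, names a later red cell progenitor, and BFU-E, for burst-forming unit-erythroid, an earlier one. The hashed library held cells with the names FACS CFU-E and FACS BFU-E, from cell sorting, and PE-high and PE-low, of a magnet method. PE-high was taken to be the later fraction because its erythroid markers are higher, which no label states. The CITE-seq library, stained with barcoded antibodies to CD117 and CD71, held cells named CS CFUE and CS BFUE and cells with no name. All groups carry the same strain and no engineered allele is given. The labels also describe growth with dexamethasone or methanol. The sources used here do not give whether that applies to the sequenced cells, what PE and CS mean, how a cell got its name, or whether the cells of a name came from several animals.

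Chaperones bind unfolded protein and help it reach its folded state. Hsp70 proteins cycle between ATP and ADP forms, J-domain proteins (Dnaja, Dnajb and Dnajc) bring them substrates and trigger ATP hydrolysis, and Hsp110 proteins exchange the nucleotide. Hsp90 acts later on kinases and receptors, the CCT ring folds actin and tubulin, Hspd1 with its lid Hspe1 folds proteins in mitochondria, and Hspa5 and Hsp90b1 work in the endoplasmic reticulum (ER). In red cell precursors an inducible Hsp70 is known to shield the transcription factor Gata1 from cleavage, and Hsp90 takes part in putting heme into globin.

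Unique molecular identifiers (UMIs) were summed over the cells of each name, called a pool, and a level is the UMIs of a gene per 1000000 UMIs of the pool (CPM). The pools held 167 FACS CFU-E, 233 FACS BFU-E, 294 PE-high, 208 PE-low, 195 CS CFUE and 122 CS BFUE cells, with between 2968491 UMIs in CS BFUE and 11003022 in PE-high. Each condition has 1 pool, so there was no replicate check and no test. Ratios between pools describe these libraries, and their 95% exact intervals cover counting error only. The libraries shared 0 cell barcodes. The FACS and CS names fitted their markers, and for the PE pair the markers set the order and are no check. In all, 10 erythroid genes summed to 2660 to 3596 CPM in the 3 later pools, against 807 to 1100 CPM in the 3 earlier pools. Of these, 9 of 10 were higher in the later pool of every pair, and Car1, a carbonic anhydrase, was lower. Markers of granulocyte progenitors were also present, and summed to 6.42 CPM in FACS CFU-E against 1338 CPM in FACS BFU-E, to 183 CPM in PE-high against 723 CPM in PE-low, and to 13.1 CPM in CS CFUE against 633 CPM in CS BFUE. Elane and Ms4a3, which define that lineage, were at 0 in FACS CFU-E and in CS CFUE.

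The chaperone genes together took up 28702 CPM in FACS CFU-E and 28507 CPM in FACS BFU-E, 29174 CPM in PE-high and 27710 CPM in PE-low, and 22255 CPM in CS CFUE and 20234 CPM in CS BFUE. The 4 hashed pools therefore lay close together, and both CITE-seq pools lay below them. A level of at least 20 CPM on average over the 6 pools was asked of a gene before ratios were compared, and 43 of the 74 members and 5410 genes in all met it. The 31 others had at most 29.0 CPM in any pool. For the 28 members that averaged 100 CPM or more, the upper limit of the counting interval lay 0.768% to 12.5% above the level, and for the 15 below 100 CPM it lay 5.73% to 29% above it. The kit reads the end of a transcript and counts a molecule once whatever its length, so levels of different genes were set side by side without scaling for length.

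**Figure D1:**
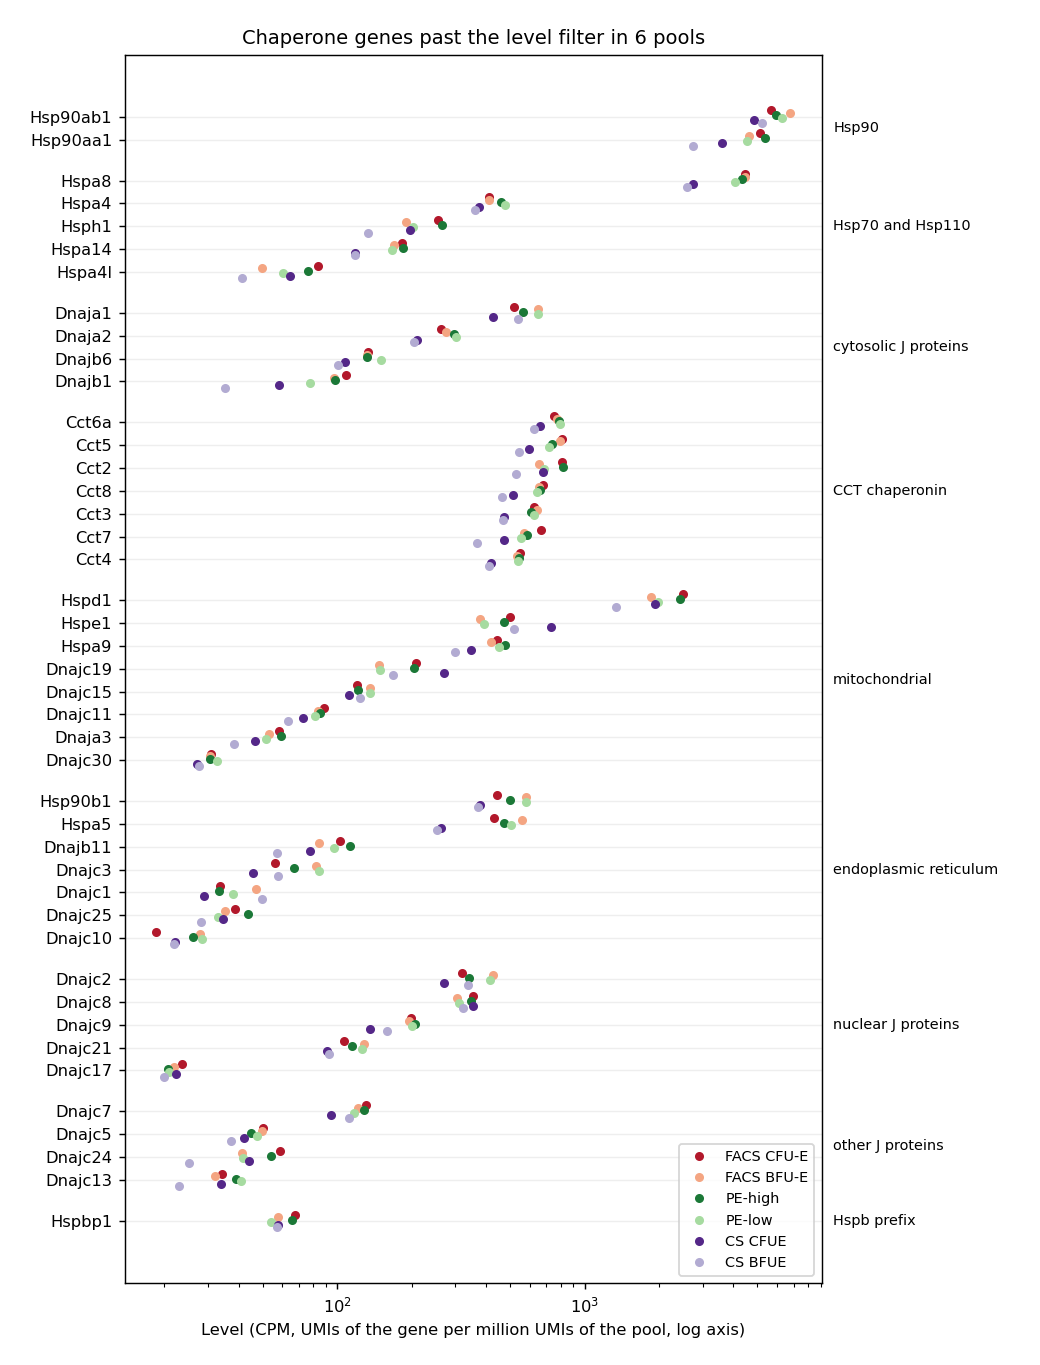
Levels of the 43 chaperone genes past the level filter in the 6 named pools, in CPM on a log axis, with 1 point a pool and genes grouped by role. Hsp90ab1, Hsp90aa1, Hspa8 and Hspd1 lie at 1337 CPM or more in every pool, the 7 CCT subunits lie in a narrow band between 368 and 820.4 CPM, and the CITE-seq pools are the lowest points for most genes.

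The main comparison was of later with earlier progenitors, made 3 times in pools that share no cells. Few chaperone genes passed 1.5-fold, but over all 6 pools the set was no more even than other genes. The median spread between the highest and the lowest pool was 1.55 for the 43 members and 1.54 for all genes. Within 1.5-fold stayed 41.9% of the members and 44.7% of all genes. For FACS CFU-E over FACS BFU-E, 1 of 43 members was higher past 1.5-fold, against 8.54% of all 5410 genes, and 0 were lower, against 10.1%. For PE-high over PE-low, 0 of 43 were higher, against 5.84% of all genes, and 0 lower, against 7.28%. For CS CFUE over CS BFUE, 4 of 43 were higher, against 10.2% of all genes, and 1 was lower, against 9.41%. The number higher in the CS pair thus lay near the share of all genes. Hspa4l was the FACS member, and Dnajb1, Dnajc19, Dnajc24 and Hspa4l were higher and Dnajc1 lower in the CS pair. Without the marker-rich cells described with the ER members, Hspa4l and Dnajc19 (ratio 1.497) no longer passed in the CS pair, Dnajb11 (1.527) and Dnajc13 (1.635) did, and Dnajb1, Dnajc24 and Dnajc1 still passed. The median log2 ratio of the 43 was 0.06 in the FACS pair, 0.04 in the PE pair and 0.09 in the CS pair, beside 0.02, 0.00 and 0.05 for all genes.

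Small differences pointed the same way in many members. The later pool was higher in all 3 pairs for 21 of 43 members (48.8%, against 39.7% of all genes) and lower in all 3 for 7 members (16.3%, against 33.5% of all genes). Scaling by the median of ratios in place of total UMIs shifts every gene of a pair by the same amount and gave 29 and 6 members (67.4% and 14%), against 50.4% and 25.2% of all genes. Leaving out cells rich in granulocyte and monocyte markers, described with the ER members, gave 18 and 7 (41.9% and 16.3%), against 35.3% and 32.7% of all genes. The sum of 18 genes of S phase, which were not members, was also higher in the later pools. It was 3736 CPM in FACS CFU-E against 3146 CPM in FACS BFU-E, and 3944 CPM in PE-high against 3174 CPM in PE-low. In CS CFUE it was 2836 CPM against 2331 CPM in CS BFUE. Of the 18, 11 (61.1%) were above 1 in all 3 pairs and 3 (16.7%) below 1 in all 3, against 39.7% and 33.5% of all genes. The part of the S phase genes in the chaperone differences was not tested.

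**Figure D2:**
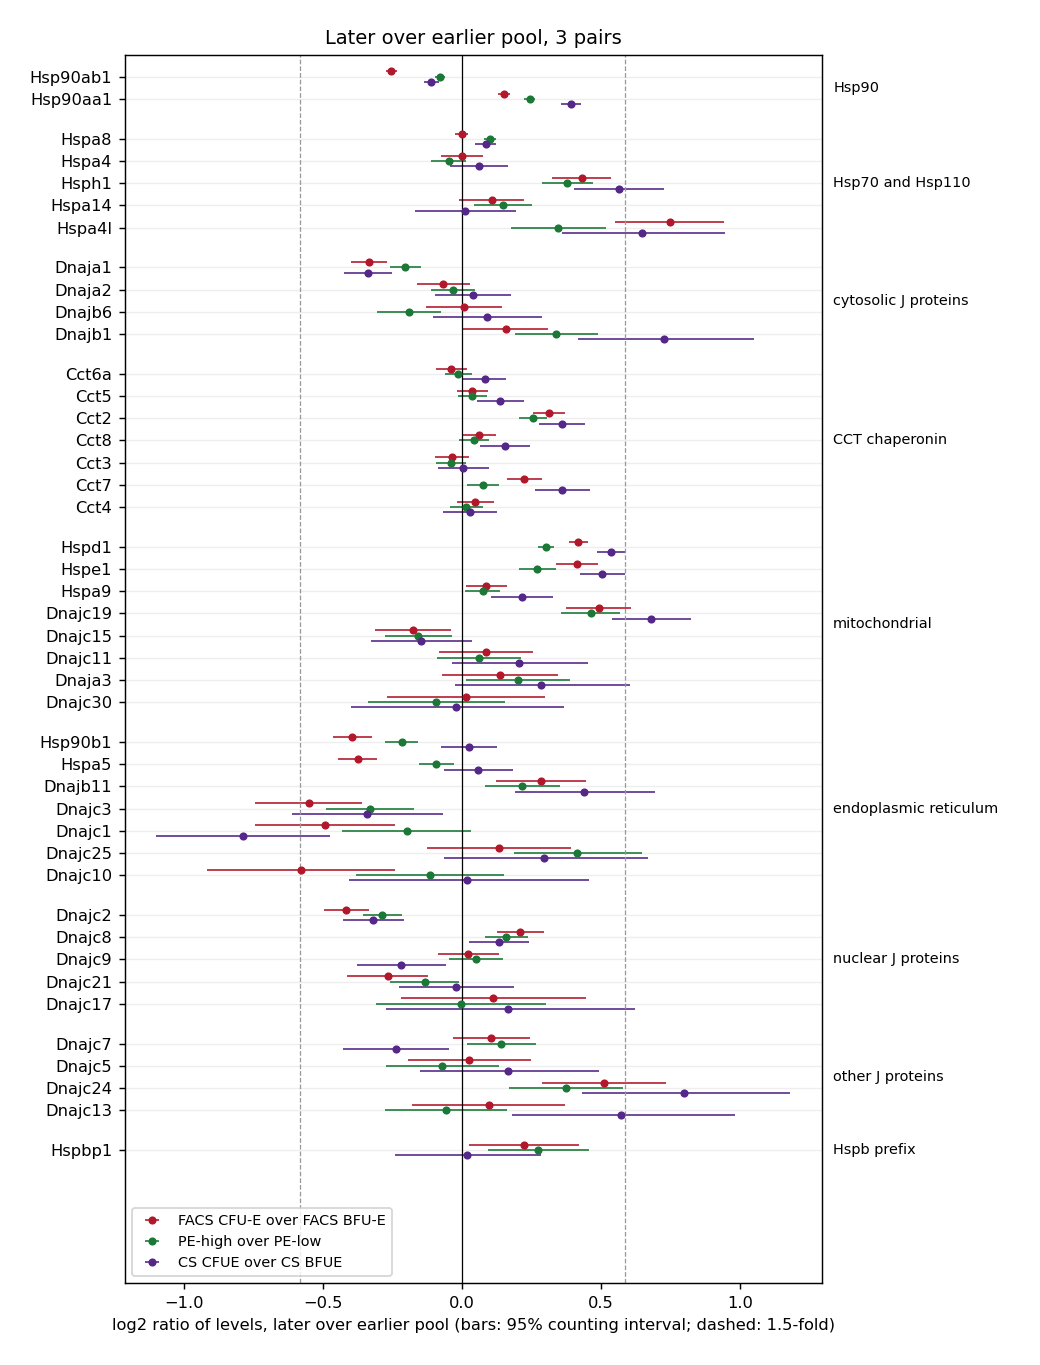
Log2 ratio of the level in the later over the earlier pool for the 43 members in 3 pairs of pools, with 95% counting intervals as bars and dashed lines at 1.5-fold. Hspd1, Hspe1, Hsph1, Dnajc19 and Dnajc24 lie to the right in all 3 pairs and Dnajc2 and Dnaja1 to the left, while the points of Cct3 and Cct6a lie near 0, where the scaling turns their direction in the FACS and PE pairs.

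The cytosolic Hsp90 genes were the highest chaperones together with Hspa8 and differed in opposite directions. Hsp90ab1, the constitutive form, had 5670.2 CPM in FACS CFU-E against 6765 CPM in FACS BFU-E, 5961 CPM in PE-high against 6298 CPM in PE-low, and 4821 CPM in CS CFUE against 5208 CPM in CS BFUE. Hsp90aa1, the form that heat induces most, had 5127 CPM in FACS CFU-E against 4617 CPM in FACS BFU-E, 5356 CPM in PE-high against 4527 CPM in PE-low, and 3609.5 CPM in CS CFUE against 2753 CPM in CS BFUE. Hsp90ab1 was thus lower in the later pool of every pair and Hsp90aa1 higher. The ratios of Hsp90ab1 were 0.838 (0.827 to 0.850) in the FACS pair, 0.946 (0.935 to 0.958) in the PE pair and 0.926 (0.908 to 0.943) in the CS pair. Those of Hsp90aa1 were 1.11 (1.09 to 1.13), 1.18 (1.17 to 1.20) and 1.31 (1.28 to 1.34) in the same order of pairs. No interval included 1, and each ratio was far from 1.5-fold. The 16 Hsp90 co-chaperones that met the level filter had 0 members past 1.5-fold in any of the 3 pairs, with median log2 ratios of -0.13, -0.07 and -0.05. Of all genes 18.65%, 13.12% and 19.63% passed 1.5-fold either way in the FACS, PE and CS pairs.

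Hspa8, the constitutive Hsp70 that also strips clathrin coats, was level across stages. It had 4441 CPM in FACS CFU-E and 4449 CPM in FACS BFU-E, 4336 CPM in PE-high and 4044 CPM in PE-low, and 2738 CPM in CS CFUE and 2584 CPM in CS BFUE. The ratio was 0.998 (0.982 to 1.01) in the FACS pair, where its direction turns with the scaling, 1.07 (1.06 to 1.09) in the PE pair and 1.06 (1.03 to 1.09) in the CS pair. Hspa4, an Hsp110 relative, was likewise even, at 409.6 CPM in FACS CFU-E and 409.8 CPM in FACS BFU-E, with a direction that turns with the scaling in the FACS and PE pairs.

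The other Hsp110-type exchange factors were higher in the later pools. Hsph1 had 255 CPM in FACS CFU-E against 189 CPM in FACS BFU-E, 264 CPM in PE-high against 204 CPM in PE-low, and 197 CPM in CS CFUE against 134 CPM in CS BFUE. Within each pair the later pool was higher, with ratios of 1.35 (1.252 to 1.45), 1.30 (1.22 to 1.38) and 1.48 (1.32 to 1.65) for the FACS, PE and CS pairs. Hspa4l had 83.4 CPM in FACS CFU-E against 49.8 CPM in FACS BFU-E, 76.5 CPM in PE-high against 60.3 CPM in PE-low, and 64.4 CPM in CS CFUE against 41.1 CPM in CS BFUE. All 3 later pools lay above all 3 earlier pools. Its ratios were 1.68 (1.46 to 1.92), 1.27 (1.13 to 1.43) and 1.57 (1.28 to 1.93), and without marker-rich cells the log2 ratios were 0.49, 0.15 and 0.41, which no longer passed 1.5-fold in any pair. Hspa14, which works with Dnajc2 at the ribosome, had ratios of 1.08 (0.993 to 1.17), 1.11 (1.03 to 1.19) and 1.01 (0.889 to 1.14). Of 12 Hsp70 co-chaperones past the level filter, 1 was higher and 1 lower past 1.5-fold in the FACS pair, 0 higher and 1 lower in the PE pair, and 1 higher and 1 lower in the CS pair. Among all genes 8.54% were higher and 10.1% lower in the FACS pair, 5.84% and 7.28% in the PE pair, and 10.2% and 9.41% in the CS pair. Bag2, an exchange factor for Hsp70, was the higher gene, with log2 ratios of 0.79, 0.57 and 0.97. Hscb, a J-protein of iron-sulfur cluster assembly, was the lower, with -0.79, -0.76 and -0.65.

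The cytosolic J proteins differed in direction. Dnaja1, a class A partner of Hspa8, had 517 CPM in FACS CFU-E against 651 CPM in FACS BFU-E, 565 CPM in PE-high against 651 CPM in PE-low, and 427 CPM in CS CFUE against 540.3 CPM in CS BFUE. It was lower in the later pool of each pair, with ratios of 0.793 (0.758 to 0.830), 0.867 (0.835 to 0.901) and 0.790 (0.744 to 0.840). Dnajb1, the class B partner that heat shock induces, had 108 CPM in FACS CFU-E against 97.1 CPM in FACS BFU-E, 98.2 CPM in PE-high against 77.6 CPM in PE-low, and 58.5 CPM in CS CFUE against 35.4 CPM in CS BFUE. The CITE-seq pools were the lowest, and the ratios were 1.11 (1.00 to 1.24), 1.26 (1.14 to 1.40) and 1.65 (1.33 to 2.07). The inducible Hsp70 gene Hspa1a, no member here, had 15.6 CPM in FACS CFU-E against 68.6 CPM in FACS BFU-E, 1.45 CPM in PE-high against 4.94 CPM in PE-low, and 8.06 CPM in CS CFUE against 8.08 CPM in CS BFUE. It was thus lower in 2 later pools and level in the CS pair, where Dnajb1 was higher in all 3. Dnaja2 and Dnajb6 had ratios between 0.875 and 1.06 in the 3 pairs, and the direction of Dnaja2 turns with the scaling in the FACS and PE pairs.

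The CCT ring, which folds actin and tubulin, differed little between stages. Over the 6 pools of both libraries, its 7 subunits past the filter had a median spread of 1.47 between the highest and the lowest pool. CS BFUE was the lowest pool for each, so this spread takes in the library difference and is not one of stage alone. Of the 7, 5 stayed within 1.5-fold, beside a median spread of 1.54 and a share of 44.7% for all genes. The widest was Cct7, from 666 CPM in FACS CFU-E to 368 CPM in CS BFUE, and it was lower past 1.5-fold for CS BFUE over FACS BFU-E. The subunits are made for 1 complex, and their levels lay within a narrow range: 549 CPM for Cct4 to 814 CPM for Cct5 in FACS CFU-E, against 531 CPM for Cct4 to 793 CPM for Cct5 in FACS BFU-E. Together the CCT genes took up 4903 CPM in FACS CFU-E and 4621 CPM in FACS BFU-E, 4746 CPM in PE-high and 4566 CPM in PE-low, and 3809 CPM in CS CFUE and 3405 CPM in CS BFUE. None of the 7 passed 1.5-fold in any stage pair, against 18.65%, 13.12% and 19.63% of all genes in the FACS, PE and CS pairs.

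Cct2 and Cct7 stood furthest from 1 within the ring. Cct2 had 811 CPM in FACS CFU-E against 654 CPM in FACS BFU-E, 820.4 CPM in PE-high against 688 CPM in PE-low, and 677 CPM in CS CFUE against 528 CPM in CS BFUE. Its ratios were 1.24 (1.19 to 1.29), 1.19 (1.15 to 1.23) and 1.28 (1.21 to 1.36), so the later pool was higher in each pair. Cct7 had ratios of 1.17 (1.12 to 1.22), 1.05 (1.01 to 1.10) and 1.28 (1.20 to 1.37). Cct4, Cct5 and Cct8 had ratios from 1.01 to 1.11. Cct3 and Cct6a had ratios from 0.972 to 1.06, and their direction turns with the scaling in the FACS and PE pairs. Tcp1, the remaining subunit, had 659 CPM in FACS CFU-E and 626 CPM in FACS BFU-E, 651 CPM in PE-high and 648 CPM in PE-low, and 514 CPM in CS CFUE and 451 CPM in CS BFUE, which is the same range. Of 13 genes of Tcp1, prefoldin and other CCT partners, 0 passed 1.5-fold in the FACS and PE pairs and 1 was lower in the CS pair. It was Pdcl3, a phosducin-like CCT partner, at a log2 ratio of -0.72. Of all genes 18.65% and 13.12% passed either way in the FACS and PE pairs, and 9.41% were lower in the CS pair. The testis form Cct6b had at most 0.802 CPM.

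The mitochondrial folding machinery was higher in the later pools. Its 10 genes summed to 3957 CPM in FACS CFU-E against 3123 CPM in FACS BFU-E, 3901 CPM in PE-high against 3286 CPM in PE-low, and 3561 CPM in CS CFUE against 2589 CPM in CS BFUE. Hspd1 alone made up most of each sum. Of the 8 past the level filter, 6 (75%) were above 1 in all 3 pairs, against 39.7% of all genes. Hspd1, the mitochondrial Hsp60, had 2489 CPM in FACS CFU-E against 1864 CPM in FACS BFU-E, 2431 CPM in PE-high against 1974 CPM in PE-low, and 1936 CPM in CS CFUE against 1337 CPM in CS BFUE. Its lid Hspe1 had 502 CPM in FACS CFU-E against 377 CPM in FACS BFU-E, 474 CPM in PE-high against 393 CPM in PE-low, and 734 CPM in CS CFUE against 518 CPM in CS BFUE. Within each pair both genes were higher in the later pool. The ratios of Hspd1 were 1.34 (1.31 to 1.37), 1.23 (1.21 to 1.26) and 1.45 (1.40 to 1.5), and those of Hspe1 1.33 (1.26 to 1.40), 1.21 (1.15 to 1.26) and 1.42 (1.34 to 1.5).

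The number of Hspe1 UMIs per Hspd1 UMI differed between the libraries. The hashed pools had 0.202 Hspe1 UMIs per Hspd1 UMI in FACS CFU-E (0.194 to 0.210) and 0.202 in FACS BFU-E (0.194 to 0.211), 0.195 in PE-high (0.189 to 0.201) and 0.199 in PE-low (0.191 to 0.208). The CITE-seq library had 0.379 in CS CFUE (0.368 to 0.392) and 0.387 in CS BFUE (0.365 to 0.411), and 0.409 (0.405 to 0.414) in its 2136 unnamed cells. The intervals of the 2 libraries do not meet, while those of the stages overlap within each pair. The reference names 6 pseudogenes of Hspe1 and 5 of Hspd1, none of which is in the table, so how reads were split between gene and copies is uncertain, and the part of this in the library difference was not tested.

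Hspd1 and Hspe1 lie head to head on chromosome 1. In RefSeq's GRCm38.p6 table the promoter windows, 250 bases before to 50 after a start, of Hspd1 (chr1:55087883-55088182, minus strand) and Hspe1 (chr1:55087898-55088197, plus strand) share 285 bases read from opposite strands. The table lists a second Hspd1 start, whose window (chr1:55088194-55088493, minus strand) shares 4 bases with that of Hspe1 and holds no match to the heat shock motif described next. Heat shock factor binds inverted repeats of GAA, and a window of 3 such units, GAANNTTCNNGAA on either strand, was searched. It was found in 198 of 32851 promoters (0.603%) and, among the 60 members that matched the table, in Hspd1, Hspe1, Hsph1 and Dnajb6. The matches are shown with 8 bases on either side, with capitals for the match. Of the 4 genes, 3 were higher in the later pool of all 3 pairs, against 21 of 43 members (48.8%) and 39.7% of all genes. Hspd1 and Hspe1, which share a site, are among the 3, so the count holds that site more than once. The Hspd1 and Hspe1 lines are the same site on opposite strands (chr1:55088051-55088084, 2 overlapping matches), the Hsph1 site lies at chr5:149636280-149636308 on the minus strand and the Dnajb6 site at chr5:29735844-29735872 on the plus strand.
Hspd1: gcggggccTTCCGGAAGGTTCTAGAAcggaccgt
Hspe1: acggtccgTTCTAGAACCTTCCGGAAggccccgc
Hsph1: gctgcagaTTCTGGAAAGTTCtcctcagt
Dnajb6: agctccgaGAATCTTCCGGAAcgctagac

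Dnajb6, with the same letters, had ratios of 1.00 (0.914 to 1.10), 0.875 (0.808 to 0.948) and 1.06 (0.930 to 1.22). A link between the match and the direction was not tested. A match is a run of letters and was not measured as a bound site. The whole Hspe1 window is given because it holds the shared stretch, again with the match in capitals.
Hspe1 promoter: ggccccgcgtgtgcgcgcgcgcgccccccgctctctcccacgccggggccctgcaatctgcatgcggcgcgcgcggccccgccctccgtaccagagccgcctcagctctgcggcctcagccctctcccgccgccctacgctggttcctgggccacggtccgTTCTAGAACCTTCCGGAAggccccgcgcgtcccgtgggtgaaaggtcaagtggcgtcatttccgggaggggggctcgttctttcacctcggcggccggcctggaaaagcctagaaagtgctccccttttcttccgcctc

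Dnajc19, the J protein of the inner membrane import motor, had 208 CPM in FACS CFU-E against 148 CPM in FACS BFU-E, 205 CPM in PE-high against 149 CPM in PE-low, and 270.3 CPM in CS CFUE against 169 CPM in CS BFUE. All 3 later pools lay above all 3 earlier pools, with ratios of 1.40 (1.29 to 1.52), 1.38 (1.28 to 1.48) and 1.60 (1.45 to 1.77). Dnajc15, its relative at the same motor, went the other way in each pair, with ratios below 1 and log2 values between -0.18 and -0.15, although its interval in the CS pair included 1. Hspa9, the Hsp70 of the mitochondrial matrix, differed less, with ratios of 1.06 (1.01 to 1.12), 1.05 (1.01 to 1.10) and 1.16 (1.07 to 1.254). Among 12 genes of mitochondrial import and proteolysis, 2 were higher past 1.5-fold in the FACS pair, 0 in the PE pair and 2 in the CS pair. Of all genes 8.54%, 5.84% and 10.2% were higher in these pairs. None of the 12 was lower, against 10.1%, 7.28% and 9.41% of all genes. The median log2 ratios of the 12 were 0.29, 0.16 and 0.33. In all 3 pairs 10 of 12 (83.3%) were above 1, against 39.7% of all genes. Lonp1, a matrix protease, was at 0.63 in the FACS pair, and Timm17a, an inner membrane translocase subunit, at 0.60 there and 0.74 in the CS pair. Dnajc19, Hspa9 and Dnaja1 each have 1 named pseudogene in the reference, so their counts carry the same uncertainty as those of Hspe1.

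**Figure D3:**
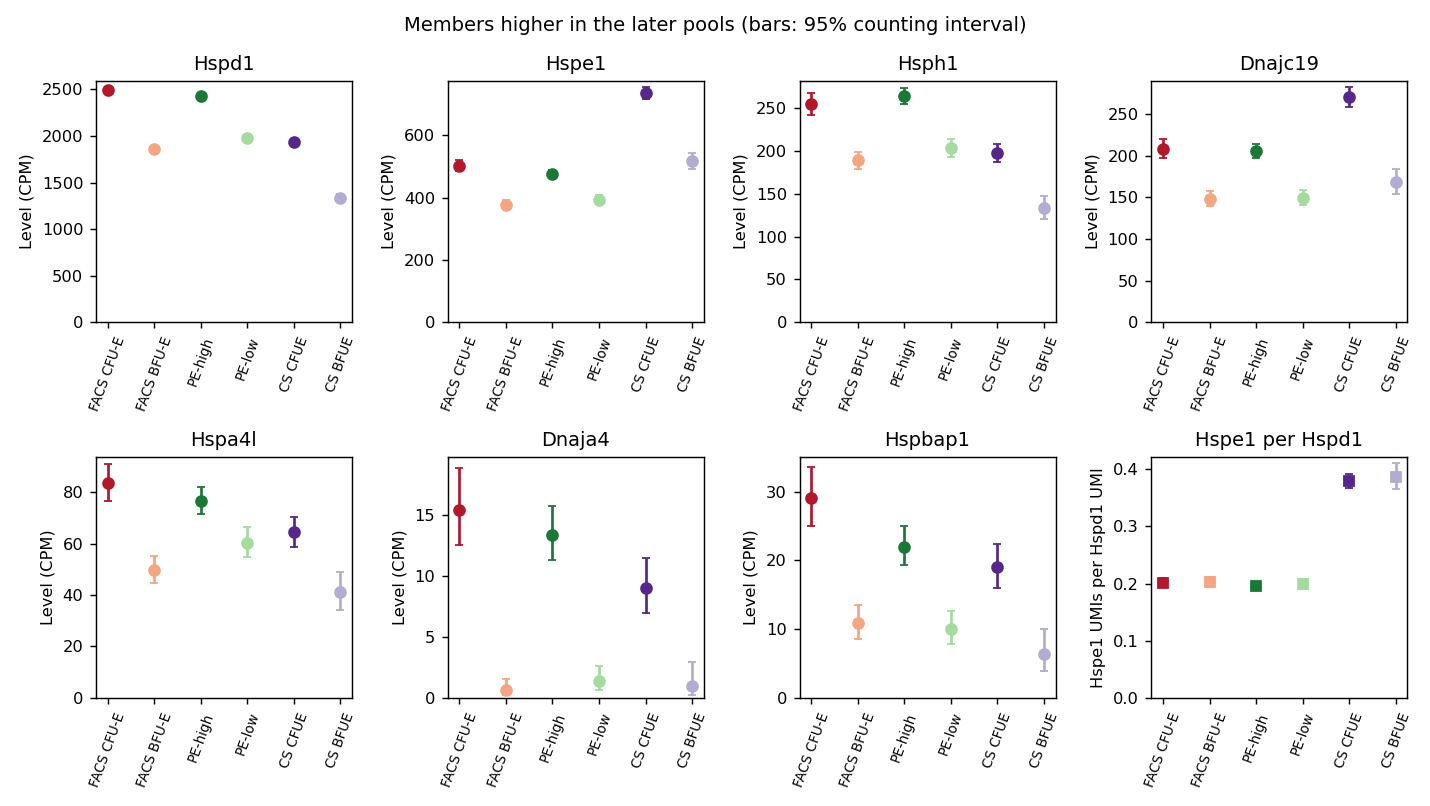
Levels in CPM, with 95% counting intervals as bars, of 7 members that were higher in the later pools, and the number of Hspe1 UMIs per Hspd1 UMI, in the 6 pools. The later pool lies above its earlier pool in each pair for all 7 genes, and the last panel separates the 4 hashed pools (0.195 to 0.202) from the CITE-seq pools (0.379 and 0.387).

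The summed level of the ER chaperones was lower in the later pool in 2 of the 3 pairs, and the members differed in direction. The 14 genes summed to 1205 CPM in FACS CFU-E against 1507 CPM in FACS BFU-E, 1335 CPM in PE-high against 1450.1 CPM in PE-low, and 925 CPM in CS CFUE against 906 CPM in CS BFUE. Hspa5, the ER Hsp70, had 429 CPM in FACS CFU-E against 557 CPM in FACS BFU-E, 472 CPM in PE-high against 504 CPM in PE-low, and 264 CPM in CS CFUE against 253 CPM in CS BFUE. Hsp90b1, the ER Hsp90, had 441 CPM in FACS CFU-E against 580.2 CPM in FACS BFU-E, 501 CPM in PE-high against 582.4 CPM in PE-low, and 378 CPM in CS CFUE against 372 CPM in CS BFUE. Both were lower in FACS CFU-E and PE-high than in their earlier pools, and nearly level in the CS pair. The ratios of Hspa5 were 0.770 (0.733 to 0.809), 0.937 (0.898 to 0.978) and 1.04 (0.956 to 1.13), and those of Hsp90b1 0.760 (0.725 to 0.798), 0.859 (0.825 to 0.895) and 1.02 (0.947 to 1.09). Dnajc3, a J protein of the ER lumen that also restrains an eIF2 alpha kinase, had ratios of 0.682 (0.596 to 0.779), 0.795 (0.713 to 0.887) and 0.788 (0.653 to 0.952). Dnajc1, a J protein of the ER membrane, had 33.5 CPM in FACS CFU-E against 47.2 CPM in FACS BFU-E, 33.2 CPM in PE-high against 38.1 CPM in PE-low, and 28.8 CPM in CS CFUE against 49.9 CPM in CS BFUE, with ratios of 0.711 (0.596 to 0.846), 0.870 (0.742 to 1.02) and 0.578 (0.466 to 0.718). Dnajb11, a lumenal partner of Hspa5, went the other way, with ratios of 1.22 (1.09 to 1.36), 1.16 (1.06 to 1.28) and 1.36 (1.14 to 1.62). Dnajc25 was also above 1 in the 3 pairs, at 1.10 (0.917 to 1.31), 1.33 (1.14 to 1.56) and 1.23 (0.955 to 1.59). Of the 7 ER members past the filter, 2 were thus above 1 and 2 below it in every pair (28.6% each), against 39.7% and 33.5% of all genes. Of 12 other genes of ER folding and the unfolded protein response, 6 were lower past 1.5-fold in the FACS pair, 2 in the PE pair and 0 in the CS pair. Of all genes 10.1%, 7.28% and 9.41% were lower in these pairs. Of the 12, 0 were higher, against 8.54%, 5.84% and 10.2% of all genes. The median log2 ratios of the 12 were -0.45, -0.25 and -0.11. Calr, the lectin chaperone calreticulin, had 670.2 CPM in FACS CFU-E against 1124 CPM in FACS BFU-E, 748 CPM in PE-high against 943 CPM in PE-low, and 471 CPM in CS CFUE against 595 CPM in CS BFUE.

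The ER difference moved with cells rich in markers of another lineage. Cells with 10 or more UMIs summed over granulocyte progenitor and monocyte markers, called marker-rich here, were 0 of 167 in FACS CFU-E against 77 of 233 in FACS BFU-E, 19 of 294 in PE-high against 53 of 208 in PE-low, and 3 of 195 in CS CFUE against 38 of 122 in CS BFUE. Hspa5 stood at 828 CPM in the marker-rich cells of FACS BFU-E (789.9 to 866) against 442 CPM in the rest (424 to 460.5). It stood at 732 CPM against 461 CPM in PE-high, at 774 CPM against 418 CPM in PE-low, and at 364 CPM against 207 CPM in CS BFUE. Hsp90b1 stood at 816 CPM against 480.1 CPM in FACS BFU-E, at 899.8 CPM against 483 CPM in PE-high, at 926 CPM against 472 CPM in PE-low, and at 492 CPM against 321 CPM in CS BFUE. In the 4 pools with 19 or more such cells the marker-rich cells were thus higher in both genes, with intervals that do not meet. Hspd1 was lower in them: 1495 CPM against 2020.3 CPM in FACS BFU-E, 1248 CPM against 2484 CPM in PE-high, 1419 CPM against 2151 CPM in PE-low, and 1142 CPM against 1418 CPM in CS BFUE.

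Without the marker-rich cells the stage differences of Hspa5 and Hsp90b1 were smaller or turned in the FACS and PE pairs. The log2 ratio of Hspa5 was then -0.04 in the FACS pair, 0.14 in the PE pair and 0.35 in the CS pair, and that of Hsp90b1 was -0.12, 0.03 and 0.23. Dnajc3 kept its direction, at -0.26, -0.17 and -0.22. The mitochondrial pair kept its direction as well, with log2 ratios of 0.30, 0.21 and 0.46 for Hspd1 and 0.32, 0.21 and 0.43 for Hspe1.

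**Figure D4:**
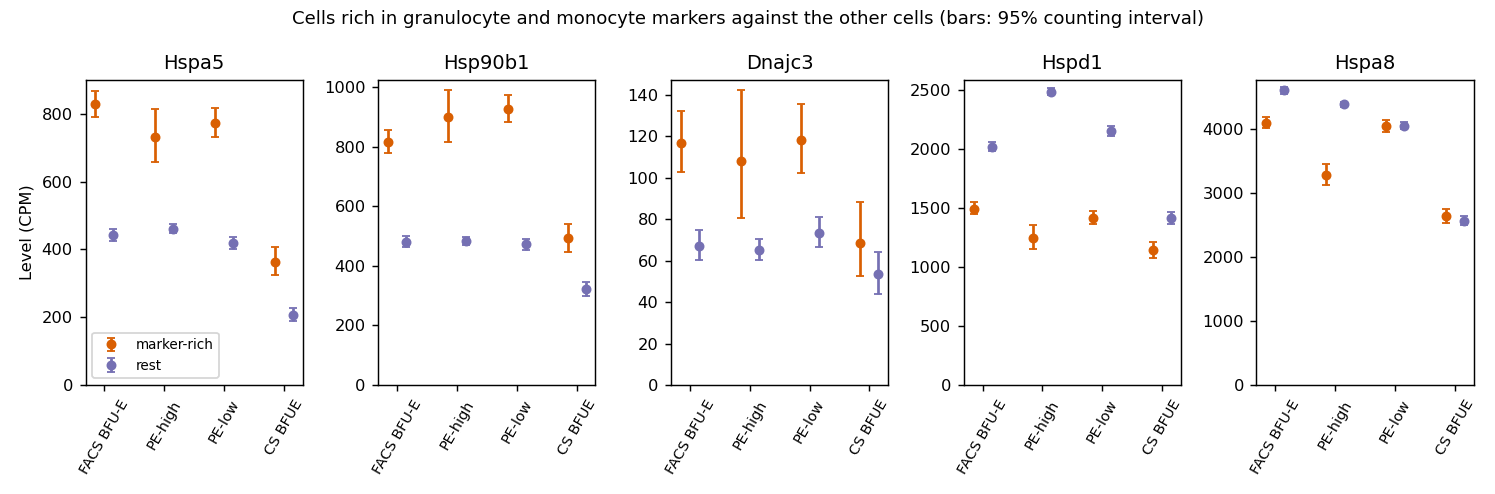
Levels in CPM, with 95% counting intervals as bars, of 5 chaperones in marker-rich cells and in the remaining cells of the 4 pools that hold 19 or more marker-rich cells. Hspa5 and Hsp90b1 are higher in the marker-rich cells of each of these pools, Hspd1 is lower in each, and the intervals of Hspa8 overlap in PE-low and CS BFUE.

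The ER stress response element, CCAAT and CCACG with 9 bases between them, was searched in the same promoter table on both strands. It was found in 39 of 32851 promoters (0.119%) and, among the members, in Hspa5, Hsp90b1 and Dnajc3. With all cells in, these 3 were lower in FACS CFU-E and PE-high than in their earlier pools. In the CS pair Hspa5 and Hsp90b1 were nearly level. Without marker-rich cells both turned in the PE pair, while Dnajc3 kept its direction. The matches are shown with capitals for the element. They lie at chr2:34772017-34772051 (plus strand) for Hspa5, at chr10:86705630-86705664 and chr10:86705525-86705559 (minus strand, the second reading the element backwards) for Hsp90b1, and at chr14:118937819-118937853 (plus strand) for Dnajc3.
Hspa5: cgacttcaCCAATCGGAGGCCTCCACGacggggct
Hsp90b1, far site: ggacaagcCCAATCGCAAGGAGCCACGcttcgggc
Hsp90b1, near site: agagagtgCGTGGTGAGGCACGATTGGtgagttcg
Dnajc3: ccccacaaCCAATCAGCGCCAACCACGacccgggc

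Hspa5 and Hsp90b1 also varied together from cell to cell. After each cell was thinned to 10000 UMIs, Pearson's r between them was 0.279 over 167 FACS CFU-E cells and 0.620 over 233 FACS BFU-E cells, 0.481 over 294 PE-high cells and 0.565 over 208 PE-low cells, and 0.276 over 195 CS CFUE cells and 0.600 over 122 CS BFUE cells. The earlier pools, which hold more marker-rich cells, had the higher values. Without marker-rich cells r lay between 0.275 and 0.459. These are descriptions over cells that share a library. The whole Hspa5 window is given for context, with the element in capitals (chr2:34771840-34772139, plus strand).
Hspa5 promoter: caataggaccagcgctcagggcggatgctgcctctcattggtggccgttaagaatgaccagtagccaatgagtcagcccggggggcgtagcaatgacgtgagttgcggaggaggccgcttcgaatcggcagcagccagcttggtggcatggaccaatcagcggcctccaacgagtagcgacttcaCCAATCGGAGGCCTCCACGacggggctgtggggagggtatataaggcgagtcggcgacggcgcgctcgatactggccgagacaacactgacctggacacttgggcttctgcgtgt

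Some other pairs of chaperones varied together, and others did so weakly or not at all. Hsp90aa1, which is cytosolic, and the mitochondrial Hspd1 had an r between 0.277 in FACS CFU-E and 0.525 in PE-low. Without marker-rich cells it was 0.428 in PE-low and at most 0.4635, in FACS BFU-E. Hsp90ab1 and Hsp90aa1 had an r between 0.270 in CS BFUE and 0.443 in FACS CFU-E. The median r over the 6 pools was only 0.049 for Hsp90ab1 and Hspa8. For Hspa8 with CCT subunits it ran from 0.023 with Cct2 to 0.173 with Cct3. Between CCT subunits it ran from -0.008 for Cct2 and Cct4 to 0.141 for Cct6a and Cct2. In FACS CFU-E and CS CFUE, with 0 and 3 marker-rich cells, the Hsp90 pair had a higher r (0.443 and 0.403) than Hspa5 with Hsp90b1. The levels were unlike, however. In FACS CFU-E the thinned means were 56.6 UMIs for Hsp90ab1 and 50.7 for Hsp90aa1, against 4.17 for Hspa5 and 4.47 for Hsp90b1. Counting error lowers r more at low counts, so these values do not rank pairs of unlike level. Hspd1 and Hspe1, whose promoter windows overlap, had an r of 0.084 in FACS CFU-E and at most 0.364 in FACS BFU-E, at a mean of few Hspe1 UMIs a cell. Hspa8 varied much between cells. Its variance over mean after thinning was 4.43 to 7.78 in the 6 pools, at or above the 90th percentile of genes of like level (90.4 to 100), and its highest cell held 488 UMIs in FACS BFU-E. Hspa5 stood at the 93.0 to 99.1 percentile and Hsp90b1 at the 92.5 to 98.8.

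The nuclear and ribosome-linked J proteins split by member. Dnajc2, which assists nascent chains at the ribosome, had 319 CPM in FACS CFU-E against 426 CPM in FACS BFU-E, 339.8 CPM in PE-high against 415 CPM in PE-low, and 271 CPM in CS CFUE against 338 CPM in CS BFUE. It was lower in the later pool of each pair, with ratios of 0.749 (0.708 to 0.793), 0.819 (0.780 to 0.860) and 0.801 (0.742 to 0.865), and log2 ratios of -0.44, -0.31 and -0.36 without marker-rich cells. Its ribosomal partner Hspa14 did not share that direction. Dnajc8, a spliceosome-associated J protein, was the most even member, with 306 to 354 CPM in the 6 pools and a spread of 1.16. Dnajc9, a histone chaperone with a J domain, had ratios of 1.02 (0.940 to 1.10), 1.03 (0.968 to 1.11) and 0.859 (0.769 to 0.960). Dnajc21, a factor of large ribosomal subunit assembly, had 0.831 (0.751 to 0.918), 0.910 (0.835 to 0.993) and 0.985 (0.855 to 1.14), and its direction turns with the scaling in the CS pair.

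Among the other class C proteins Dnajc24, a cofactor of diphthamide synthesis on elongation factor 2, was higher in the later pools. It had 58.9 CPM in FACS CFU-E against 41.4 CPM in FACS BFU-E, 53.9 CPM in PE-high against 41.6 CPM in PE-low, and 43.9 CPM in CS CFUE against 25.3 CPM in CS BFUE. All 3 later pools lay above all 3 earlier pools, with ratios of 1.42 (1.22 to 1.66), 1.29 (1.12 to 1.49) and 1.74 (1.35 to 2.26). Dnajc7, a co-chaperone of Hsp70 and Hsp90, had ratios of 1.08 (0.977 to 1.18), 1.10 (1.01 to 1.20) and 0.847 (0.742 to 0.968).

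The members below the level filter held the largest fold differences, and Dnaja4, Hspbap1, Hspb11 and Dnajb9 are named here after their values were seen. Dnaja4, a class A cytosolic J protein, had 96 UMIs in FACS CFU-E against 5 in FACS BFU-E, 147 in PE-high against 10 in PE-low, and 66 in CS CFUE against 3 in CS BFUE. These are levels of 15.4 CPM against 0.678 CPM, 13.4 CPM against 1.41 CPM and 9.02 CPM against 1.01 CPM. All 3 later pools lay far above all 3 earlier pools, and the ratios were 22.7 (9.41 to 71.6), 9.46 (5.0 to 20.1) and 8.92 (2.92 to 44.4). It was detected in 66 of 167 FACS CFU-E cells (39.5%, exact interval 32.1% to 47.4%) against 5 of 233 FACS BFU-E cells (2.15%, 0.700% to 4.94%), and in 101 of 294 PE-high cells (34.4%, 28.9% to 40.1%) against 10 of 208 PE-low cells (4.81%, 2.33% to 8.66%). In the CITE-seq library it was detected in 51 of 195 CS CFUE cells (26.2%, 20.1% to 32.9%) against 2 of 122 CS BFUE cells (1.64%, 0.199% to 5.80%). After thinning to 10000 UMIs, the cells with a UMI were 24 in FACS CFU-E against 1 in FACS BFU-E, 44 in PE-high against 3 in PE-low, and 17 in CS CFUE against 0 in CS BFUE. The order was thus the same at equal depth, and in the marker-rich cells of FACS BFU-E, PE-high and CS BFUE Dnaja4 was at 0.

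Hspbap1, a JmjC-domain protein that binds Hspb1, had 29.0 CPM in FACS CFU-E against 10.8 CPM in FACS BFU-E, 22.0 CPM in PE-high against 10.0 CPM in PE-low, and 19.0 CPM in CS CFUE against 6.40 CPM in CS BFUE. The later pools were all above the earlier ones, with ratios of 2.68 (2.05 to 3.53), 2.19 (1.68 to 2.90) and 2.97 (1.83 to 5.08). Hspb11, a component of the transport machinery of cilia, was lower in each later pool, with 4.65 CPM in FACS CFU-E against 10.8 CPM in FACS BFU-E, 7.36 CPM in PE-high against 13.1 CPM in PE-low, and 5.74 CPM in CS CFUE against 12.5 CPM in CS BFUE. Its ratios were 0.429 (0.270 to 0.663), 0.561 (0.411 to 0.764) and 0.460 (0.289 to 0.737). Dnajb9, an ER J protein, was at 15.7 CPM in FACS BFU-E and between 5.06 and 7.36 CPM in the other 5 pools. That pool also stood apart in immediate early genes, whose sum was 271 CPM in FACS CFU-E against 903 CPM in FACS BFU-E, and 215 CPM in PE-high against 234 CPM in PE-low, and the part of this in the Dnajb9 level was not tested.

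The small heat shock proteins were at or near the limit of detection. None of the 6 met the level filter, and together they had 4.81 CPM in FACS CFU-E and 2.17 CPM in FACS BFU-E, 3.09 CPM in PE-high and 2.12 CPM in PE-low, and 3.69 CPM in CS CFUE and 2.69 CPM in CS BFUE. Hspb6 made up most of this. Hspb2 had 0 UMIs in all 3357 cells. Hspb1, the best known of them, had 0 UMIs in FACS CFU-E, where 3 counts would be 0.481 CPM, and 3 UMIs in FACS BFU-E, yet 175 UMIs lay in 3 of the 2136 unnamed cells of the CITE-seq library, 102 of them in 1 cell.

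Few genes of any kind passed 1.5-fold between isolation by magnet and by sorting, and 0 of 43 chaperones lies near the share of all genes. These comparisons use the same pools as the stage pairs and are not independent of them. For PE-high over FACS CFU-E, 0 of 43 members were higher past 1.5-fold, against 2.14% of all genes, and 0 were lower, against 0.129%. For PE-low over FACS BFU-E, 0 of 43 were higher, against 0.536% of all genes, and 0 lower, against 0.314%. The median log2 ratio of the members was 0.02 for PE-high over FACS CFU-E and -0.00 for PE-low over FACS BFU-E. Furthest from 1 for PE-high over FACS CFU-E was Dnajc10, an ER disulfide reductase with a J domain, at 26.2 CPM in PE-high against 18.6 CPM in FACS CFU-E. Furthest on either side for PE-low over FACS BFU-E were Dnajb1, at 77.6 CPM in PE-low against 97.1 CPM in FACS BFU-E and a ratio of 0.80 (0.714 to 0.895), and Dnajc13. Dnajc13, a J protein of endosomes, had 40.8 CPM in PE-low against 32.0 CPM in FACS BFU-E, a ratio of 1.27 (1.07 to 1.52).

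By total UMIs most members, like most genes, were lower in the CITE-seq library than in the hashed one. For CS CFUE over FACS CFU-E 40 of 43 members (93%) were below 1, against 76.9% of all genes, and for CS BFUE over FACS BFU-E 39 of 43 (90.7%), against 77.6%. Under the median of ratios 9 and 6 members changed direction, which left 31 (72.1%) and 33 (76.7%) below 1, against 50.9% and 54.1% of all genes. For CS CFUE over FACS CFU-E, 4 of 43 members were lower past 1.5-fold and 0 higher, against 7.41% lower and 3.96% higher among all genes. For CS BFUE over FACS BFU-E, 7 of 43 were lower and 0 higher, against 14% lower and 3.44% higher among all genes. These comparisons were added after the data were seen and share pools with the stage pairs. The median log2 ratio of the members was -0.29 for CS CFUE over FACS CFU-E and -0.40 for CS BFUE over FACS BFU-E, beside -0.22 and -0.26 for all genes, so the median of all genes also lay below 0. Scaling by the median of ratios brought all genes to 0.00 (-0.004) and -0.03 and the members to -0.07 and -0.18. It changed the calls to 2 higher and 1 lower for CS CFUE over FACS CFU-E and to 1 higher and 2 lower for CS BFUE over FACS BFU-E. Over all genes it changed 214 higher and 401 lower to 369 higher and 63 lower for the CFU-E pools, and 186 higher and 759 lower to 356 higher and 219 lower for the BFU-E pools.

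Dnajb1, Hspa5 and Hspe1 stood out from that shift. Dnajb1 had a ratio of 0.541 (0.478 to 0.611) for CS CFUE over FACS CFU-E and 0.364 (0.294 to 0.448) for CS BFUE over FACS BFU-E, and was lower past 1.5-fold under both scalings. Hspa5 had 0.614 (0.579 to 0.652) and 0.455 (0.420 to 0.492), the first of which did not pass 1.5-fold under the median of ratios. Hspe1 was higher in the CITE-seq pools and its partner lower, with ratios of 1.46 (1.40 to 1.53) and 1.37 (1.29 to 1.46), beside 0.778 (0.760 to 0.796) and 0.717 (0.692 to 0.743) for Hspd1. Hspe1 was higher past 1.5-fold for both stages under the median of ratios. Dnajc19 was the other member above 1 in both comparisons past the widths of its intervals, at 1.30 (1.21 to 1.40) and 1.14 (1.02 to 1.27). Hspa8, at 0.617 (0.605 to 0.628) and 0.581 (0.567 to 0.596), did not pass 1.5-fold under the median of ratios. The libraries also differed in hepatocyte transcripts, whose 3 markers summed to 121 CPM in CS CFUE against 1.76 CPM in FACS CFU-E and to 26.3 CPM in CS BFUE against 2.85 CPM in FACS BFU-E, and the part of this in the chaperone levels was not tested. Library and staining cannot be told apart in this design.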

How the data were processed

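Per the labels, 2 libraries were made with a 10x 3' kit, and the submitters' processing notes name the mm10 build, Scanpy and Cell Ranger 4.0.0. The values the authors deposited are on a natural log scale, ln(1 + UMIs per 10000), in 1 table with 3357 cells, 17608 genes and a column of cell names, and no header or label states which filters on cells were applied. Dividing the unlogged values of a cell by its smallest gave whole UMIs for 100% of 16419767 values (within 0.02), 6863 to 49971 a cell and 104273072 in all. Summed UMIs were compared between pools with exact conditional binomial, Poisson and Clopper-Pearson 95% intervals (Python 3.11.15, scipy 1.17.1), at a mean level of 20 CPM or more, with 1.5-fold as the threshold and no p-values. The comparison was tested on simulated counts. Doublets were not called. For cell-to-cell values each cell was thinned to 10000 UMIs, and 0 cells of the named pools were shallower. Named members are those past 1.5-fold or else furthest from 1, and the 4 highest of each role, with the rest of the CCT ring added. Coordinates and promoters are RefSeq's, of GRCm38.p6, which is mm10. Members and lists were chosen with earlier results of these data known. Protein sequences and 14 member promoters were not used here.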

Additional observations from a re-analysis of the deposited data

How the results depend on the processing

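Of 966 alternative values for 242 named ratios, 785 moved by less than the counting interval, 181 moved further and 0 of those past 1.5-fold reversed. Counts of members past 1.5-fold changed more. With no level filter they were 17 in the FACS stage pair, 12 in the PE pair, 13 in the CS pair, 6 for PE-low over FACS BFU-E, 8 for PE-high over FACS CFU-E, 12 for CS CFUE over FACS CFU-E and 14 for CS BFUE over FACS BFU-E, of 67 to 69 members with a UMI in either pool. Of all genes with UMIs in both pools, 37.73%, 38.35% and 41.02% passed in the FACS, PE and CS stage pairs. In the remaining comparisons 19.25%, 20.06%, 26.36% and 33.04% passed, in the order given. With a threshold of 25% above or the inverse below they were, for the same comparisons, 13, 7, 15, 2, 1, 21 and 28 of 43, against 38.2%, 28.8%, 40.8%, 5.80%, 6.64%, 42.5% and 49.7% of all genes. With 2-fold they were 0 in the FACS and CS stage pairs, 0 for CS CFUE over FACS CFU-E and 2 for CS BFUE over FACS BFU-E. Of all genes 8.651%, 8.706%, 2.255% and 2.921% passed in the same comparisons. Scaling by the median of ratios gave 2 in the FACS pair, 8 in the CS pair and 3 for CS BFUE over FACS BFU-E. Under that scaling 18.94%, 20.3% and 10.65% of all genes passed. A filter of 50 CPM gave 3 of 35 members in the CS pair, against 15.83% of all genes. Thinned cells, with 44 members compared, gave 5 in the FACS pair, 8 in the CS pair, 1 for PE-low over FACS BFU-E and 13 for CS BFUE over FACS BFU-E. After thinning 22%, 24.4%, 2.58% and 21.9% of all genes passed in these comparisons. In the FACS pair the mean of per-cell CPM gave 4, against 19.78% of all genes, and leaving out marker-rich cells gave 0, against 14.25%. In the CS pair leaving out marker-rich cells gave 5, of which Dnajb1, Dnajc24 and Dnajc1 also pass with these cells in. The share of all genes there was 15.67%. The cause of these changes was not tested beyond what each setting alters. No paired analysis was possible because each condition has 1 pool and the labels give no replicate numbers. Depth limits members under 20 CPM most, in CS BFUE above all.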
